A study of Rattus norvegicus with 10 samples.

Results

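Uridine phosphorylase and the enzymes around it in pyrimidine metabolism were followed in rat liver after total-body irradiation (TBI). The set held 10 enzymes, namely Upp1, Upp2, Uck1, Uck2, Dpyd, Dpys, Upb1, Cda, Umps and Dhodh, and a probe was matched to 9 of them among 13426 genes with a symbol. No probe was matched to Uck2. The set was selected on the array values themselves, because Upp2 stood out between control and TBI livers. The enzymes' values in that comparison are therefore a description, no p is given for them, and a count of calls there supports nothing.

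Livers of 10 male Wistar rats were measured on 1-colour arrays, with 1 array per rat, 24 h after irradiation. The 3 control rats received 0 Gy, the 3 TBI rats received 6.5 Gy from a cobalt source, and the 4 MASM+TBI rats received MASM before the same 6.5 Gy. MASM, a derivative of the plant alkaloid matrine, was given by mouth at 30 mg/kg body weight a day for 3 days. The study text states a lower dose than the labels do, the age of the rats was not given in the sources used here, and none of the arrays used here came from rats given MASM without irradiation. All values below are quantile-normalized log2 signals, and a gene was called when its groups differed at least 1.5-fold and its adjusted p was under 0.05. Precision is limited by how few rats were measured.

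Cdkn1a, a cell cycle inhibitor that p53 induces after irradiation, served as a check of the labels. Its log2 signals were 8.01, 8.25 and 8.84 in the control rats, 13.47, 13.67 and 14.06 in the TBI rats, and 13.06, 13.23, 12.80 and 13.58 in the MASM+TBI rats. The signal was low in every rat labelled as unirradiated and high in every rat labelled as irradiated. All 3 control arrays and the array of MASM+TBI rat 3 lay on slide 1, the 3 TBI arrays on slide 2, and the other MASM+TBI arrays on slide 3. Slide 2 held TBI rats alone, so slide and TBI cannot be told apart there. Between 64.1% and 70.1% of spots were well above background on TBI arrays, against 57.2% to 59.9% on control arrays and 56.2% to 60.2% on MASM+TBI arrays. The array of TBI rat 3 had the highest share. Before normalization its 75th percentile signal was 414, against 200 to 252 on the other arrays.

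Uridine phosphorylases split uridine into uracil and ribose 1-phosphate in a reversible reaction, and they stand at the point where uridine is either recycled or broken down. The liver takes up uridine from portal blood, degrades most of it and releases newly made uridine, and so helps to hold the plasma level steady. Uridine that escapes cleavage can be phosphorylated to UMP by uridine-cytidine kinases, while uracil is degraded in a chain of reactions to beta-alanine. UMP also arises by synthesis from smaller precursors, in which Dhodh and Umps carry out the late steps.

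Upp2, the uridine phosphorylase found mainly in liver and kidney, had log2 signals of 10.48, 11.19 and 10.13 in control rats 1 to 3. The TBI rats had 4.99, 7.49 and 6.97, and the MASM+TBI rats had 7.69, 7.05, 8.24 and 5.41. Every control rat was above every irradiated rat, with or without MASM, while the TBI and MASM+TBI ranges overlapped broadly. TBI rat 1 and MASM+TBI rat 4 were the lowest of their groups, and the spread within either irradiated group exceeded that among controls. The means were 10.60 ± 0.54 (SD, n = 3) in control, 6.48 ± 1.32 (SD, n = 3) in TBI and 7.10 ± 1.23 (SD, n = 4) in MASM+TBI. The signal was well above background on all 10 arrays.

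Between control and TBI the mean Upp2 difference was −4.12 on the log2 scale (SE 0.82), a 17.4-fold lower signal, and this is the difference for which the set was chosen. Its size depended on the processing, since normexp on median pixel signals gave −2.86, and over 20 other settings it ran from −4.62 to −2.86. The normexp setting changed the pixel signal together with the background correction and added an offset of 50 to each signal. The shift cannot be put down to any 1 of these. An added offset by itself makes log2 differences of low signals smaller, for every gene given with normexp below. The MASM+TBI rats were measured against the same controls, and their Upp2 signal was 11.3-fold lower, with a log2 difference of −3.50 (SE 0.77), or −2.58 with normexp. The limma adjusted p was 0.0526 and did not pass the threshold, and all 4 MASM+TBI rats lay below all 3 controls. The same control arrays had helped to select Upp2, so neither this p nor the separation of the rats is independent of that choice. Across 21 other settings the adjusted p ran from 0.00896 to 0.313 and Upp2 was called in 5 of them, among them the setting without TBI rat 1, where the difference of −3.50 had an SE of 0.64 (adjusted p 0.0365). On slide 1, which held control and MASM+TBI arrays together, MASM+TBI rat 3 differed from the control mean by −2.36 on the log2 scale. That is a smaller difference than over all slides, and with slide as a fixed block the same −2.36 had an SE of 0.94 and an adjusted p of 0.313.

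Against TBI alone, MASM+TBI rats differed in Upp2 by 0.61 on the log2 scale (SE 0.77, adjusted p 0.730). The 95% interval of this difference ran from −1.15 to 2.38, and it held both 0 and differences of several fold toward the control level. The TBI arrays had also helped to select Upp2, as low in TBI, so the difference, its interval and its p are not independent of that choice. Without TBI rat 1 the difference was −0.13, without TBI rat 2 it was 1.12, and without MASM+TBI rat 4 it was 1.18. Without MASM+TBI rat 3 it was 0.23. Its size thus depended on single rats, and its direction on TBI rat 1.

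Upp1, the more broadly expressed uridine phosphorylase, had log2 signals of 9.46, 11.02 and 10.47 in control, 9.26, 10.05 and 9.72 in TBI, and 9.02, 9.37, 8.82 and 8.93 in MASM+TBI. Control rat 1 lay within the TBI range, and the MASM+TBI rats were all below the controls. TBI and MASM+TBI rats overlapped through TBI rat 1. The mean difference was −0.64 (SE 0.37) between control and TBI. MASM+TBI rats were 2.43-fold below control, with a log2 difference of −1.28 (SE 0.35) and an adjusted p of 0.0985, which did not pass. The difference passed without control rat 1 (−1.71, adjusted p 0.0207) and with slide as a random block (−1.24, adjusted p 0.0454), and the adjusted p over all alternatives ran from 0.0207 to 0.446. The random block rested on a negative correlation within slides (−0.133). On slide 1 alone MASM+TBI rat 3 differed from the controls by −1.50, and with slide as a fixed block this same difference did not pass. Against TBI the difference was −0.64 (SE 0.35, adjusted p 0.401).

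**Figure D1:**
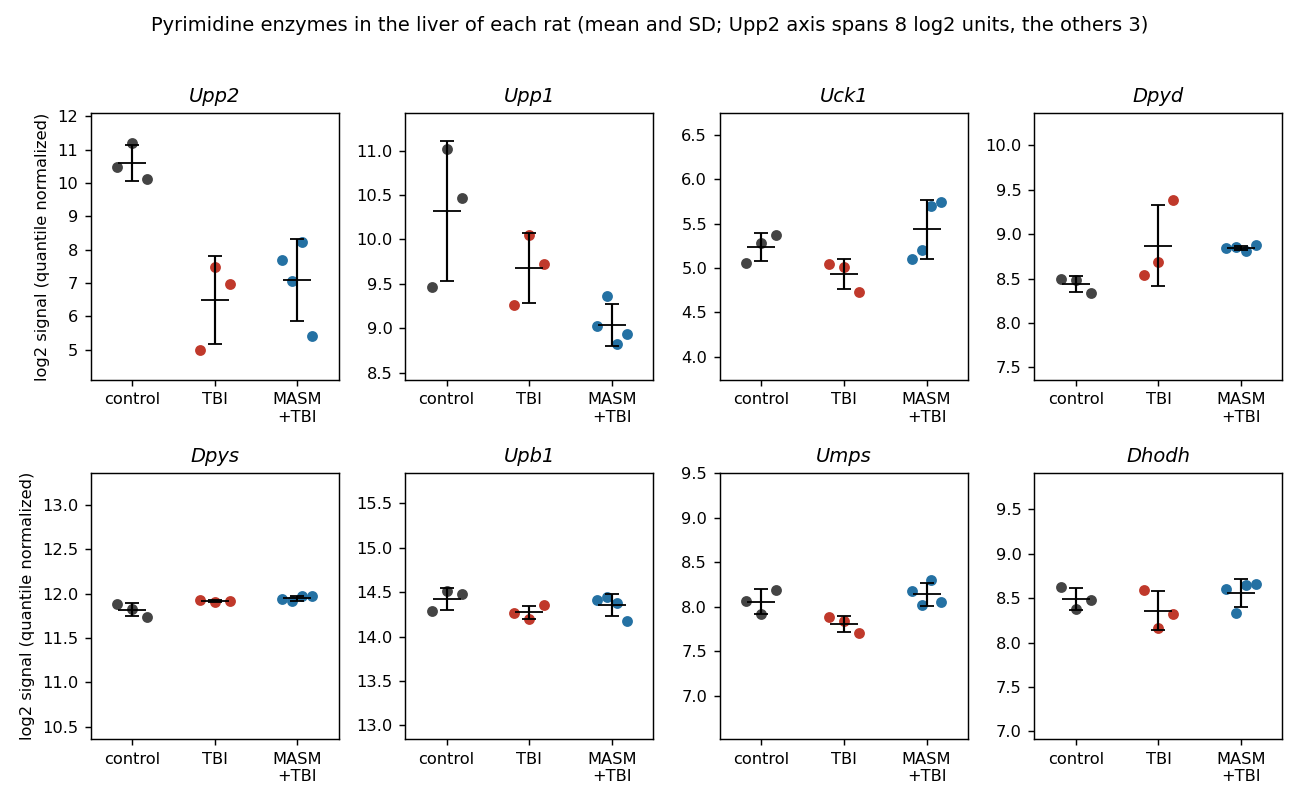
Quantile-normalized log2 signal of 8 pyrimidine enzymes in the liver of each rat, on the brightest probe of each gene, with points for rats and bars for the group mean and SD (control n = 3, TBI n = 3, MASM+TBI n = 4). The Upp2 axis spans 8 log2 units and the others span 3, and the control rats stand apart from all irradiated rats for Upp2, at 10.13 to 11.19 against 4.99 to 8.24.

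Uck1 encodes a uridine-cytidine kinase, which returns uridine and cytidine to the nucleotide pool. Its signals were 5.06, 5.28 and 5.37 in control, 5.05, 5.01 and 4.74 in TBI, and 5.11, 5.20, 5.69 and 5.75 in MASM+TBI. The TBI rats lay below both other groups by a narrow margin, and the MASM+TBI rats overlapped the controls. The TBI mean differed from control by −0.31 (SE 0.20). MASM+TBI exceeded TBI by 0.51 (SE 0.18), with an adjusted p of 0.210, and differed from control by 0.20 (SE 0.18, adjusted p 0.679).

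The first step of uracil and thymine breakdown is carried out by dihydropyrimidine dehydrogenase, encoded by Dpyd, which also degrades the drug 5-fluorouracil. Dpyd signals on its brightest probe were 8.49, 8.48 and 8.33 in control, 8.54, 8.68 and 9.39 in TBI, and 8.84, 8.85, 8.81 and 8.88 in MASM+TBI. All irradiated rats were above all controls, TBI rat 3 was well above the rest, and the MASM+TBI rats were nearly identical to each other. The log2 difference from control was 0.43 (SE 0.19) in TBI and 0.41 (SE 0.18, adjusted p 0.301) in MASM+TBI. A dimmer Dpyd probe gave 0.53 (SE 0.24) and 0.56 (SE 0.23, adjusted p 0.259) in the same order, so both probes pointed the same way, and neither was called in MASM+TBI. Between MASM+TBI and TBI the probes differed by −0.03 and 0.03, and without TBI rat 3 the brightest probe was 0.23 higher with MASM.

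Dpys encodes dihydropyrimidinase, which opens the reduced ring in the next step. Its signals ran from 11.74 to 11.88 in control, from 11.90 to 11.93 in TBI and from 11.91 to 11.98 in MASM+TBI. The ranges of control and irradiated rats did not overlap, yet they lay very close together. The differences from control were 0.10 (SE 0.07) in TBI and 0.13 (SE 0.06, adjusted p 0.346) in MASM+TBI. Upb1 encodes beta-ureidopropionase, which releases beta-alanine or beta-aminoisobutyrate at the end of the chain. Its signals overlapped between all groups, with differences from control of −0.15 (SE 0.10) in TBI and −0.07 (SE 0.10, adjusted p 0.815) in MASM+TBI. The last of these was 0.0625 after scaling to the 75th percentile, and so it had no settled sign.

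Cda encodes cytidine deaminase, which turns cytidine into uridine. Its probe was not well above background on any of the 10 arrays, and no fold change is given. The background-level signals were 4.01, 3.22 and 2.85 in control and between 1.48 and 1.73 in the irradiated rats. The fit called the probe in both comparisons with control, and these calls rest on signals at the background.

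Dhodh encodes the dihydroorotate dehydrogenase of the inner mitochondrial membrane, and Umps the enzyme that converts orotate to UMP. Umps signals were 8.06, 7.91 and 8.19 in control, 7.88, 7.84 and 7.71 in TBI, and 8.18, 8.02, 8.31 and 8.06 in MASM+TBI. As with Uck1, the TBI rats lay below both other groups, and MASM+TBI and control overlapped. The Umps difference was −0.25 (SE 0.11) between control and TBI and 0.33 (SE 0.10, adjusted p 0.158) between TBI and MASM+TBI. Against control MASM+TBI differed by 0.08 (SE 0.10, adjusted p 0.791). Dhodh overlapped between all groups, with differences from control of −0.13 (SE 0.14) in TBI and 0.07 (SE 0.13, adjusted p 0.919) in MASM+TBI, and of 0.20 (SE 0.13, adjusted p 0.482) between TBI and MASM+TBI.

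Between control and TBI, 2 of 9 enzymes were called, Upp2 and the background-level Cda, where 5.18% of all genes were called. Groups did not overlap for 6 of 9 enzymes, against 30.6% of all genes. Nothing is read from either count, because this comparison chose the set. The median log2 difference was −0.25 over the enzymes and −0.01 over all genes.

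Between control and MASM+TBI, 1 of 9 enzymes was called, again Cda, against 2.90% of all genes. Groups did not overlap for 5 of 9, against 22.3% of all genes, and these 5 were Upp1, Upp2, Dpyd, Dpys and Cda. The median difference was 0.07 over the enzymes. Without control rat 1 or without TBI rat 1 the count called was 2, since Upp1 passed in the first case and Upp2 in the second. With slide as a random block 3 enzymes were called, with the trended and robust prior 2, and with slide as a fixed block 0. Both comparisons used the same 3 control rats and are not independent of each other.

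Between TBI and MASM+TBI, limma called 0 of 9 enzymes, against 0.864% of all genes. At an unadjusted p under 0.05 limma found 2 enzymes, Uck1 and Umps, where 16.5% of all genes passed. The methods' t-test with the fold limit found 0 at that p, where 3.37% of all genes passed. Groups did not overlap for 3 of 9, Uck1, Umps and the background-level Cda, against 17.2% of all genes. The median difference was 0.14 over the enzymes and 0.01 over all genes. A p that misses the threshold does not show that the groups were alike.

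A further 53 genes of pyrimidine metabolism were listed by role, and 42 of them had a probe. Between control and TBI, 1 of the 42 rose and 4 fell, where 2.44% of all genes rose and 2.74% fell. In MASM+TBI rats 1 rose and 3 fell against control, where 0.931% and 1.97% of all genes did. The counts were sensitive to control rat 2, without which 2 genes were called in TBI and 1 in MASM+TBI, and without control rat 3 the count in TBI was 3. Without MASM+TBI rat 1, 3 or 4 the count in MASM+TBI was 2. Against TBI, limma called 0 of the 42 in MASM+TBI, with 4 of 42 at an unadjusted p under 0.05, where 16.5% of all genes passed, and the methods' t-test after adjustment called 0. The median difference of the 42 was −0.13 in TBI and −0.07 in MASM+TBI against control.

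Cmpk2, a mitochondrial UMP-CMP kinase that interferon induces, had signals of 7.67, 9.03 and 8.86 in control, 5.998, 6.34 and 6.44 in TBI, and 5.97, 6.24, 5.71 and 5.69 in MASM+TBI. Every irradiated rat was below every control. Cmpk2 fell by 2.26 in TBI (−2.26, SE 0.34, adjusted p 0.00986) and by 2.62 in MASM+TBI (−2.62, SE 0.32, adjusted p 0.00515). With normexp the differences were smaller, −1.38 and −1.49, and both were still called. The TBI call was lost with only the 2 groups compared, and both calls were lost by the methods' t-test. The related cytosolic kinase Cmpk1, set beside it after the values were seen, differed from control by 0.03 (SE 0.15) and 0.12 (SE 0.14). Of the 8 measured genes that form UTP and CTP, Cmpk2 alone was called in these comparisons.

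Ugp2 makes UDP-glucose from UTP and glucose 1-phosphate, mainly for glycogen. Its signals were 14.92, 14.87 and 14.23 in control, 13.40, 13.06 and 13.22 in TBI, and 13.94, 13.70, 13.92 and 13.58 in MASM+TBI. The 3 groups did not overlap at all, and the MASM+TBI rats lay between the others. Ugp2 fell by 1.45 in TBI (−1.45, SE 0.20, adjusted p 0.00664) and by 0.89 in MASM+TBI (−0.89, SE 0.18, adjusted p 0.0443). The latter call was held in 7 of 21 alternatives, with adjusted p from 0.014 to 0.33, and was lost without any 1 of the TBI or MASM+TBI rats and without control rat 1 or 2. MASM+TBI exceeded TBI by 0.56 (SE 0.18), with an adjusted p of 0.176.

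Among genes of deoxynucleotide supply, Tyms, the thymidylate synthase, had signals of 7.14, 7.14 and 7.34 in control, 7.99, 8.14 and 8.30 in TBI, and 8.27, 8.08, 7.89 and 8.46 in MASM+TBI. All irradiated rats were above all controls. Tyms rose by 0.93 in TBI (SE 0.15, adjusted p 0.0142) and by 0.97 in MASM+TBI (SE 0.14, adjusted p 0.013). Both calls were lost without control rat 2, by the methods' t-test and with normexp, which gave 0.53 and 0.57. With a block for replicate number the MASM+TBI call was lost and the TBI call was not. Rrm1, the large subunit of ribonucleotide reductase, moved the other way and fell by 0.64 in TBI (−0.64, SE 0.14, adjusted p 0.0403). That call was lost without any 1 control rat and without TBI rat 1 or 2 or MASM+TBI rat 3 or 4. It was also lost with normexp, which gave −0.27, with only the 2 groups compared, with a replicate block and by the methods' t-test. With the mean of all its probes the TBI difference was −0.85 (adjusted p 0.0105) and was called. In MASM+TBI Rrm1 differed from control by −0.37 (SE 0.13, adjusted p 0.201). Rrm2, a small subunit of the same enzyme, was set beside it after the values were seen. Its brightest probe differed from control by −0.51 in TBI and −0.78 in MASM+TBI (adjusted p 0.336 and 0.192). With the mean of all its probes the MASM+TBI difference was −1.93 (adjusted p 0.0292) and was called.

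Tk1, the thymidine kinase of dividing cells, had signals of 6.95, 7.36 and 7.52 in control, 6.18, 6.58 and 6.48 in TBI, and 6.59, 6.40, 6.55 and 6.56 in MASM+TBI. The controls were again above all irradiated rats. Tk1 fell by 0.86 in TBI (−0.86, SE 0.16, adjusted p 0.0226) and by 0.75 in MASM+TBI (−0.75, SE 0.15, adjusted p 0.0387). Without control rat 2 or 3 both calls were lost, and the second was also lost without any 1 of the MASM+TBI rats. Normexp gave −0.42 and −0.39, and both calls were lost. The same held with only the 2 groups compared, with a replicate block and by the methods' t-test. On slide 1 alone, MASM+TBI rat 3 differed from the controls by −2.81 in Cmpk2, 0.68 in Tyms, −0.73 in Tk1 and −0.75 in Ugp2, and with slide as a fixed block none of the 4 passed.

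**Figure D2:**
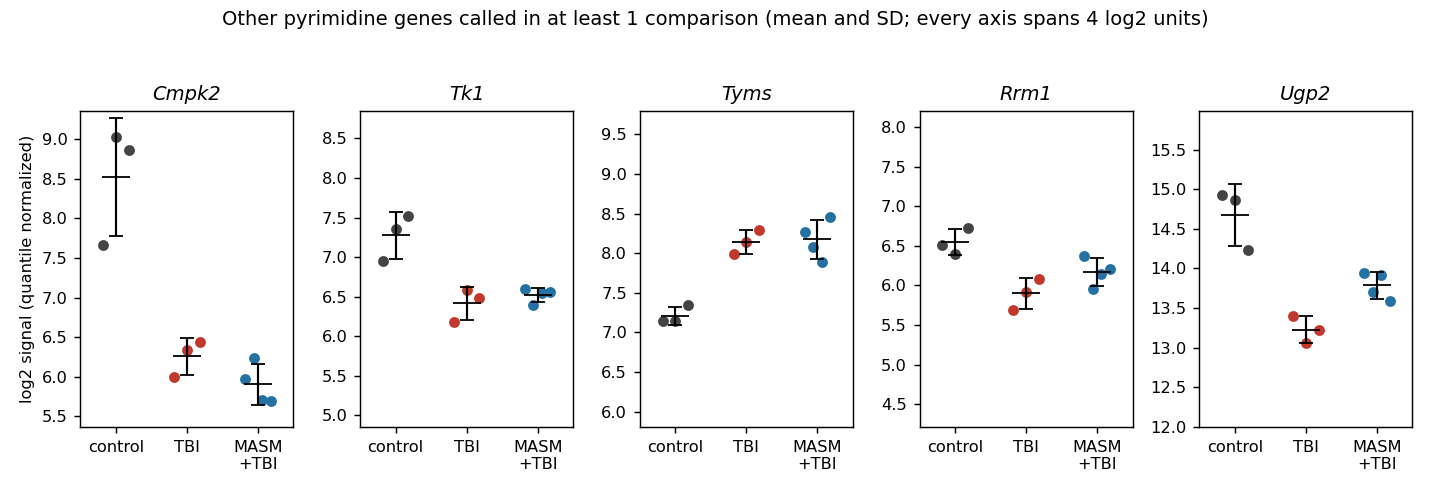
Quantile-normalized log2 signal in each rat of the 5 other pyrimidine genes called in at least 1 comparison, with points for rats and bars for the group mean and SD (control n = 3, TBI n = 3, MASM+TBI n = 4). Each axis spans 4 log2 units, and Cmpk2, Tk1, Rrm1 and Ugp2 were lower and Tyms higher in all irradiated rats than in all controls.

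No call was made among the remaining roles. Cad, which starts pyrimidine synthesis, differed from control by 0.02 (SE 0.15) in TBI and 0.19 (SE 0.14) in MASM+TBI. Entpd5, the brightest of 7 measured nucleotidases, differed by −0.20 (SE 0.12) and −0.06 (SE 0.12). Slc29a1, an equilibrative nucleoside transporter and the brightest of 7 carriers, differed by 0.18 (SE 0.19) and −0.07 (SE 0.18). Agxt2, an aminotransferase that uses beta-aminoisobutyrate, differed by 0.25 (SE 0.14) and 0.37 (SE 0.13), with an adjusted p of 0.178 in MASM+TBI. These genes gave no call in either direction.

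Slc28a1, a concentrative pyrimidine nucleoside transporter, was picked out after its values were seen. Its signals were 4.55, 4.99 and 4.71 in control, 6.77, 6.24 and 4.55 in TBI, and 4.45, 4.62, 4.95 and 4.72 in MASM+TBI. TBI rats 1 and 2 stood above all others, and TBI rat 3 was at the control level. Over all rats the TBI difference of 1.10 (SE 0.48) was not called. Without TBI rat 3 the count of other pyrimidine genes called between control and TBI was 9 in place of 5, with Slc28a1 among them, and Slc28a1 was then called between MASM+TBI and TBI as well.

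Markers of other liver cells were measured on the same arrays. In whole liver, fewer cells of a type and less RNA per cell cannot be told apart. All 8 hepatocyte markers were measured, Apoc3 was the brightest, and 0 were called in either comparison with control. The log2 of their summed signal lay between 19.97 and 20.26 in every rat. The brightest markers dominate this sum, and single markers differed from control in either direction without a call. Tat differed by 1.53 (SE 0.45) in TBI and 1.13 (SE 0.42) in MASM+TBI, Cps1 by 0.51 and 0.57, Cyp2e1 by 0.33 and 0.59, and Fgb by 0.26 and 0.27. Ttr differed by −0.52 (SE 0.16) and −0.29 (SE 0.15) and lay below all controls in every irradiated rat, while Alb, Apoa1 and Apoc3 differed by −0.16 to 0.10.

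Of 6 T lymphocyte markers, 3 were called lower in TBI (Cd3e, Cd3g and Cd2) and 2 in MASM+TBI (Cd3e and Cd3g), although Cd3e was not well above background on any array. Of the others, Cd3d and Cd8a differed from control by −0.78 and −0.90 in TBI and by −0.65 and −1.76 in MASM+TBI, and Lck by 0.55 and 0.36, none of them called. The log2 of the summed signal of the list, led by Cd3d, was 9.18, 9.63 and 9.43 in control, 8.27, 7.98 and 8.85 in TBI, and 8.62, 8.72, 7.82 and 8.51 in MASM+TBI. All irradiated rats were below all controls in this sum, as they were for Upp2. The B lymphocyte marker Cd79b fell in both groups, by at least 4.98-fold in TBI and at least 2.55-fold in MASM+TBI, since it was not well above background there. The bounds rest on the lowest well-measured signal of each array, which differed between groups, so their sizes do not rank the groups, and the mean signals were 2.29 in TBI and 2.18 in MASM+TBI. Its own log2 signals were 6.11, 4.83 and 4.63 in control, and all irradiated rats were below all controls.

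Of 4 markers of dividing cells 2 had a probe, and both, Cdk1 and Ccnb1, fell in both groups. The log2 of their summed signal, led by Cdk1, was 9.11, 9.86 and 9.84 in control, 6.08, 5.93 and 6.57 in TBI, and 6.88, 5.42, 6.64 and 6.42 in MASM+TBI. The T lymphocyte and dividing cell sums separated control from irradiated rats in the same way as Upp2, Cmpk2 and Tk1, and their part in those differences was not tested. Of 4 stellate cell markers Lrat fell in both groups, while Reln, Des and Dcn differed from control by 0.40, −0.03 and 0.72 in TBI and by 0.12, −0.43 and 0.51 in MASM+TBI, none of them called. None of the 5 Kupffer cell, 3 endothelial, 2 bile duct, 3 erythroid and 3 neutrophil markers was called against control.

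Genes whose pattern was most like that of Upp2 were ranked by Pearson r over the 10 arrays, among 9579 genes well above background on all arrays of at least 1 group. The points share the split between 3 control and 7 irradiated livers, so r combines this split with the variation within groups. Among the most alike were Gys2, the liver glycogen synthase (r = 0.951), and Nat8f5 (r = 0.950). Eif4ebp1, a repressor of translation (r = 0.944), and Impa2, an inositol monophosphatase (r = 0.943), were close behind. The most opposed were Timm8b, a chaperone of mitochondrial import (r = −0.967), Nfe2l2, the transcription factor Nrf2 (r = −0.946), and Chka, a choline kinase (r = −0.945).

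Gys2 signals were 14.81, 15.12 and 14.67 in control, 14.05, 14.46 and 14.23 in TBI, and 14.22, 14.22, 14.61 and 13.98 in MASM+TBI. For Gys2, as for Upp2, TBI rat 1 and MASM+TBI rat 4 were the lowest of their groups and MASM+TBI rat 3 the highest of its own. Gys2 was picked for its r with Upp2 over these same rats, so a like order of rats adds nothing to that r. The differences of Gys2 from control, −0.62 (SE 0.19) and −0.61 (SE 0.17), were much smaller than those of Upp2 and were not called. Within the set, r with Upp2 over the same 10 arrays was 0.86 for the background-level Cda, 0.65 for Upp1, 0.60 for Upb1 and 0.26 for Umps. It was 0.0083 for Uck1, −0.098 for Dhodh, −0.50 for Dpyd and −0.71 for Dpys. The share of the ranked genes with an r no higher was 98.8% for Cda, 89.9% for Upp1, 87.4% for Upb1 and 66.9% for Umps. That share was 51.9% for Uck1, 45.3% for Dhodh, 19.1% for Dpyd and 6.21% for Dpys.

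RefSeq's promoter table for the GRCr8 assembly held 7 of the 10 enzymes. The bases just before the annotated start of Upp2 are shown because Upp2 carried the widest difference of the set. They lie at chr3:63681576-63681670 on the plus strand, and the capitals mark a match to CAAAGTNCA, letters found in elements that bind the hepatocyte factor HNF4A.
Upp2: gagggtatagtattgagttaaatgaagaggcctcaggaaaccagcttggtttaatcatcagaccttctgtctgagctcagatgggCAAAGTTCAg
The motif was chosen after this sequence had been seen. It was searched on both strands and occurred in 414 of 33469 promoters of the same table (1.24%), and in 1 of the 7 enzymes, Upp2. The E-box CACGTG occurred in 6.42% of all promoters and the D-box letters TTATGNAA in 3.66%, and in 0 of the 7. A match is a description of letters and not of a bound site, and a missing match says only that these letters are not in the window.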

How the data were processed

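The authors deposited, for each array, the spot intensity from Feature Extraction 10.7.3.1, with background subtracted and spatial trends removed, on a linear scale. The series table held identical values. Control spots (1639 of 45018) and outlier spots were left out, log2 values were quantile normalized between the 10 arrays, and spots were averaged per probe. Of 41012 probes 40945 had a value on every array, and 16950 took a symbol from RefSeq accessions, the array having been annotated on an older assembly than GRCr8. Each gene was read on its brightest probe.

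limma 3.58.1 in R 4.3.3 fitted 3 group means to all 10 arrays, with Benjamini-Hochberg adjustment over all probes. A bound divides the mean of the bright group by that of the dim group, taking on each array the higher of the dim signal and that array's lowest signal well above background. Groups, replicate numbers and doses came from the labels, and slides from file headers. One figure of the study names control and TBI arrays the other way round. The members, gene lists, motifs and alternatives were chosen with earlier results of these data known. Named genes were the enzymes, other pathway genes called in a comparison or brightest in a role without calls, the 5 most and 3 least similar to Upp2, Cdkn1a and cell markers, of which 2 genes are not reported here. Alternatives are given in the closing section. Plots used matplotlib 3.10.9 in Python 3.11.15.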

Additional observations from a re-analysis of the deposited data

Results flagged for a closer look

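Among the 9 measured enzymes, 1 had a sample far from the others in the MASM+TBI group, the only group large enough to be examined in this way. For Dhodh, MASM+TBI rat 2 had a log2 signal of 8.33, while rats 1, 3 and 4 had 8.60, 8.64 and 8.66. The gap to the nearest of the others was 0.836 of the group's whole range. Chance gives about 1 such gap in 20 groups. Rat 2 lay within the TBI range of 8.16 to 8.59 and just below the control range of 8.37 to 8.62.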

How the results depend on the processing

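Each result was recomputed with arrays scaled to the 75th percentile, with normexp on median pixel signals (planned for mean pixel signals, which were not used here), on the series value table with outlier spots kept, on only probes above background, by the methods' t-test, with only the 2 groups compared, with a prior that was trended and robust, with a block for slide or replicate number, with the mean of all probes of a gene, and without each rat in turn. Of 546 log2 differences of single enzymes, 522 kept their direction and their side of the threshold, 13 lost and 7 gained a call, and 4 reversed. The 4 were Upb1 in MASM+TBI against control after 75th percentile scaling (0.0625), Dpyd in MASM+TBI against TBI with the mean of all probes (0.000857) and without TBI rat 3 (0.23), and Upp2 in MASM+TBI against TBI without TBI rat 1 (−0.13). None of these was called. Leaving out each rat in turn gave −0.19 to 0.23 for Dpyd and −0.13 to 1.18 for Upp2 in that comparison.

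Between control and TBI, 2 enzymes and 5 other pyrimidine genes were called. These counts were 1 and 2 with normexp, 0 and 0 by the methods' t-test, and 0 and 2 with only the 2 groups compared. With only probes above background 1 enzyme was called, since Cda was then left out. Leaving out 1 rat gave 1 to 2 enzymes and 2 to 9 other genes. Between control and MASM+TBI, 1 enzyme and 4 other genes were called. Normexp gave 2 other genes, the methods' t-test 0 and 0, only the 2 groups compared 2 other genes, the trended and robust prior 2 enzymes, slide as a random block 3 enzymes, and slide as a fixed block 0 and 0. Leaving out 1 rat gave 1 to 2 enzymes and 1 to 3 other genes. Between TBI and MASM+TBI, 0 and 0 were called. Scaling to the 75th percentile gave 2 other genes, and leaving out 1 rat gave 0 to 1. At the unadjusted threshold of the study the methods' t-test counted 2, 2 and 0 enzymes in the 3 comparisons, where 7.43%, 6.75% and 3.37% of all genes passed. The causes of these shifts were not tested, apart from fewer samples or probes where the setting itself removes them.

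Deviations of same-numbered rats from their group means had correlations from −0.125 to 0.169. Rats of different numbers were not compared, so these values cannot settle whether the numbers pair the rats. A replicate block gave 3 other genes between control and TBI, and 0 enzymes and 1 other gene between control and MASM+TBI. The consensus correlation within slides was −0.133. Signal over background limits Cda, for which no difference is given.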
